A study of Homo sapiens with 12 samples.

Results

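The genes described here are TNS1, C5, TCP11L2, NMU, GPR85, ARPP21, STMN3, TRIM67 and SNAI2, 9 of the 60483 genes in a table of RNA-seq read counts. They were selected on measured values, because they changed a lot when erythroid cells differentiated, or because the effect of losing MBD2 on them differed a lot between the stages. All 9 were among the 17175 genes that passed the filter on low counts. The differentiation changes and the stage difference of the knockout effect therefore chose the members, and those values are given as a description without a test.

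The cells were HUDEP-2, an immortalised line of human erythroid progenitors. The knockout (KO) cells were MBD2-/- and the control cells carried a scrambled guide RNA, with 3 libraries in each of 4 groups and 12 in all. KO and control cells after differentiation, labelled late basophilic erythroblasts, were grown in IMDM with human AB serum, EPO, DOX, insulin, heparin and holo-transferrin. KO and control cells before differentiation, labelled early basophilic erythroblasts, were grown in StemSpan SFEM II with SCF, EPO, DEX and DOX. The medium thus changed together with the stage, and their parts cannot be told apart, while every group received EPO, DOX and L-glutamine. The labels give the length of differentiation as 3 days in one protocol and 5 days in another. They do not state whether the 3 libraries of a group came from separate cultures or whether the KO cells were 1 clone, so a p-value speaks only of the spread among the libraries at hand.

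Erythroid differentiation takes a dividing progenitor through a fixed series of erythroblast stages in which red cell genes are raised and progenitor genes are shut down. MBD2 is a protein that binds methylated CG sites and recruits the NuRD complex, which removes acetyl groups from histones and remodels nucleosomes. Several of the 9 genes are better known outside the blood, in neurons, liver or migrating cells, and they share no single pathway.

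Libraries held between 7667997 and 14047498 counts. MBD2 itself measured 14.6 to 16.8 CPM (counts scaled to the size of each library) in KO and 58.2 to 61.4 CPM in control cells after differentiation, and 19.8 to 24.5 CPM in KO and 75.3 to 78.7 CPM in control cells before it. All 19 erythroid markers were detected in every group. Their summed level was 26506 to 38992 CPM in KO and 13565 to 16548 CPM in control cells after differentiation. Before it the sum was 11818 to 17764 CPM in KO and 10751 to 15827 CPM in control cells. TFRC was its largest part in every group, with a mean of 11768 CPM in KO cells after differentiation. Globin RNA was removed by the kit. The means of HBB, HBA1, HBA2 and RHAG were lower after than before differentiation in control cells, and those of the other markers higher. Of 13 mast cell and basophil markers 9 were tested, and their sum ran opposite to the erythroid sum. It was 396 to 420 CPM in KO and 733 to 755 CPM in control cells after differentiation. Before it the sum was 835 to 872 CPM in KO and 1473 to 1540 CPM in control cells. KIT was its largest part, with means of 370 CPM in KO and 586 CPM in control cells after differentiation. Before it KIT had 662 CPM in KO and 741 CPM in control cells, where HPGD added 539 CPM. HPGDS was higher after than before differentiation in both genotypes. Only 2 of 16 neuronal, 2 of 13 stromal and 2 of 16 lymphoid markers passed the filter, while NEFM and STMN2 were at 0 in all libraries and GAD1 made up nearly all of the neuronal sum. The megakaryocyte markers, 4 of 14 tested, summed to 291 to 323 CPM in KO and 135 to 139 CPM in control cells after differentiation, and to 155 to 177 CPM in KO and 97.1 to 111 CPM in control cells before it. Most of that sum was NFE2, which erythroid cells express too, with means of 232 CPM in KO and 108 CPM in control cells after differentiation and 106 CPM in KO and 71.5 CPM in control cells before it, while PPBP and GP1BB were at 0 in all libraries.

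The 9 genes are protein-coding and lie on 9 different chromosomes, here given in build hg38. TNS1 (ENSG00000079308.15) lies on chromosome 2, 217799789 to 218002995, minus strand, C5 (ENSG00000106804.7) on chromosome 9, 120952335 to 121050276, minus strand, and TCP11L2 (ENSG00000166046.9) on chromosome 12, 106301929 to 106347015, plus strand. NMU (ENSG00000109255.10) lies on chromosome 4, 55595229 to 55636698, minus strand, GPR85 (ENSG00000164604.11) on chromosome 7, 113078331 to 113087778, minus strand, and ARPP21 (ENSG00000172995.15) on chromosome 3, 35638945 to 35794496, plus strand. STMN3 (ENSG00000197457.8) lies on chromosome 20, 63639705 to 63653427, minus strand and TRIM67 (ENSG00000119283.14) on chromosome 1, 231162112 to 231221556, plus strand. Reads were counted over exons without a strand option, so reads in exon bases shared with an antisense gene cannot be assigned. Such bases were few: 179 of 15595 in TNS1, shared with AC010136.1, which held 0 counts over all libraries, and 220 of 6558 in TCP11L2, shared with CKAP4, which is counted over the same stretch and held 33 counts. No exon base of the other 7 members was shared.

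Promoters of 8 of the 9 genes, all but SNAI2, were found in the RefSeq promoter table of GRCh38.p14, which gives windows of 300 bases, and 6 are shown because MBD2 binds methylated CG sites and because the letters before the start differ among the members. Each line gives bases before the RefSeq start nearest to the 5′ end of the gene, outside the span of the gene in the counts table, on the coding strand from 5′ to 3′. Capitals mark CG, the GATA letters AGATAA or TGATAA on either strand, and CAGGTG on either strand, the letters bound by the SNAI family, with no overlap between them in these windows.
TNS1, chr2:218010276-218010525, minus strand: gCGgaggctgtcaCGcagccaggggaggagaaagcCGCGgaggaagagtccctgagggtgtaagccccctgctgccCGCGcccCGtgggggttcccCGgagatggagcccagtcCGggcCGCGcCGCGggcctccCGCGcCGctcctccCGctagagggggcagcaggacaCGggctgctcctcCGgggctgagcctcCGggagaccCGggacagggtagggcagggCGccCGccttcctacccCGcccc
C5, chr9:121050277-121050525, minus strand: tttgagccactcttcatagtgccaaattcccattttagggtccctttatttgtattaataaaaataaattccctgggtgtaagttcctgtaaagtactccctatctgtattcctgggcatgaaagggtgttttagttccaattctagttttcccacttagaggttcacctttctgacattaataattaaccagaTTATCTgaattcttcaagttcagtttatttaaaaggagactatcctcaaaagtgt
NMU, chr4:55636794-55637043, minus strand: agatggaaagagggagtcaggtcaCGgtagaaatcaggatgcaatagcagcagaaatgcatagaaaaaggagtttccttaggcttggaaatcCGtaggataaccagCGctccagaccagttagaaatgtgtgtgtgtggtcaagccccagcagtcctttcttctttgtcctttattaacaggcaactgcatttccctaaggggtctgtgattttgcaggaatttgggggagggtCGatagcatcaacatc
GPR85, chr7:113087779-113087974, minus strand: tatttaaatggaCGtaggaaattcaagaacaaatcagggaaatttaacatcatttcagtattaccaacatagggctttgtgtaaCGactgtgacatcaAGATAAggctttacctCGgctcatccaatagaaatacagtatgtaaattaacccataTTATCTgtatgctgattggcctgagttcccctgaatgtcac
ARPP21, chr3:35638603-35638852, plus strand: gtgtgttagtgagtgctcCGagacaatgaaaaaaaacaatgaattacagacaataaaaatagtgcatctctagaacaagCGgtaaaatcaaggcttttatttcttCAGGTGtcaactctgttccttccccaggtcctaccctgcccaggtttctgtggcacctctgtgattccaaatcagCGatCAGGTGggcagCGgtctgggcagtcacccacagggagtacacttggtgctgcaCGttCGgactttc
TRIM67, chr1:231161808-231162057, plus strand: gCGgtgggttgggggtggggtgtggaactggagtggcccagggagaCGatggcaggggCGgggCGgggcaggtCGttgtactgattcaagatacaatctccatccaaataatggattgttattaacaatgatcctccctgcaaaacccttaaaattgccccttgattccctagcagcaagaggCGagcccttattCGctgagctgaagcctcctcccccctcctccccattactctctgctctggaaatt
TNS1 and C5, whose patterns over the libraries were the closest of any pair of members, held 24 and 0 CG in these bases, NMU held 4, GPR85 3, ARPP21 6 and TRIM67 7. The full windows of 300 bases around these starts held 29 CG for TNS1, 1 for C5, 5 for NMU, 3 for GPR85, 8 for ARPP21 and 16 for TRIM67. Across all 35116 promoter windows of 300 bases the median was 14 CG, with quartiles of 4 and 28. The C5 window held fewer CG than most, since only 3.96% of windows had fewer, while 75.8% had fewer than the TNS1 window. The printed TNS1 start lies 7280 bases outside the span of the gene in the counts table, and the windows of its 4 other starts, inside the span, held 6 or 7 CG. The RefSeq table also gives C5 a second start, farther upstream, whose window held 33 CG, and ARPP21 one 580 bases inside its span whose window held 37 CG. Counts per gene do not tell the starts apart, so the differences in CG depend on which start is taken. TCP11L2 and STMN3 had 30 and 35 CG in windows that lie inside their annotated span and are not printed. GATA letters occurred once in the C5 bases and at 2 places in those of GPR85, and 16.3% of all windows held them, on either strand. CAGGTG occurred at 2 places in the ARPP21 bases, and 20.6% of all windows held it. DNA methylation and factor binding were not measured in these libraries, so the letters are a description only.

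TNS1, C5 and TCP11L2 were high in 1 group, KO cells after differentiation. Tensin 1 (TNS1) links integrins at focal adhesions to the actin cytoskeleton. It measured 44.8, 48.1 and 59.8 CPM in KO and 6.00, 4.94 and 4.00 CPM in control cells after differentiation. Before differentiation it measured 3.32, 2.96 and 3.44 CPM in KO and 3.10, 2.23 and 2.67 CPM in control cells. The KO libraries after differentiation stood far above the other 9, and KO and control overlapped before differentiation. On the log2 scale the KO effect was 3.34 ± 0.15 (SE) after and 0.30 ± 0.22 before differentiation. The change on differentiation was 3.96 ± 0.16 in KO and 0.93 ± 0.20 in control cells.

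C5 encodes the complement protein that is cleaved into the inflammatory peptide C5a and into C5b, which starts the membrane attack complex. Its level was 20.2, 19.0 and 17.9 CPM in KO and 1.31, 2.03 and 0.842 CPM in control cells after differentiation. It was 1.37, 0.539 and 0.724 CPM in KO and 0.657, 1.08 and 0.571 CPM in control cells before it. The means after differentiation, 19.0 ± 1.15 CPM in KO and 1.4 ± 0.601 CPM in control cells (SD, n = 3 each), differed 13.6-fold. Control cells overlapped between the stages, and KO and control overlapped before differentiation. The log2 KO effect was 3.70 ± 0.24 after and 0.18 ± 0.42 before differentiation, and the log2 change on differentiation was 4.37 ± 0.26 in KO and 0.85 ± 0.38 in control cells.

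TCP11L2, a relative of the testis gene TCP11, had 52.9, 54.1 and 63.1 CPM in KO and 7.22, 6.69 and 6.53 CPM in control cells after differentiation. Before it the values were 15.1, 13.8 and 11.9 CPM in KO and 10.8, 9.95 and 10.7 CPM in control cells. Unlike TNS1 and C5, it was already expressed before differentiation, and its direction on differentiation depended on genotype. The log2 change on differentiation was 2.05 ± 0.10 in KO and -0.62 ± 0.13 in control cells. Its log2 KO effect was 3.05 ± 0.11 after and 0.39 ± 0.12 before differentiation, with KO and control not overlapping at either stage. The sum of erythroid markers, too, was highest in KO cells after differentiation, and its part in these levels was not tested. In bulk samples, more cells of a type and more RNA per cell cannot be told apart.

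**Figure D1:**
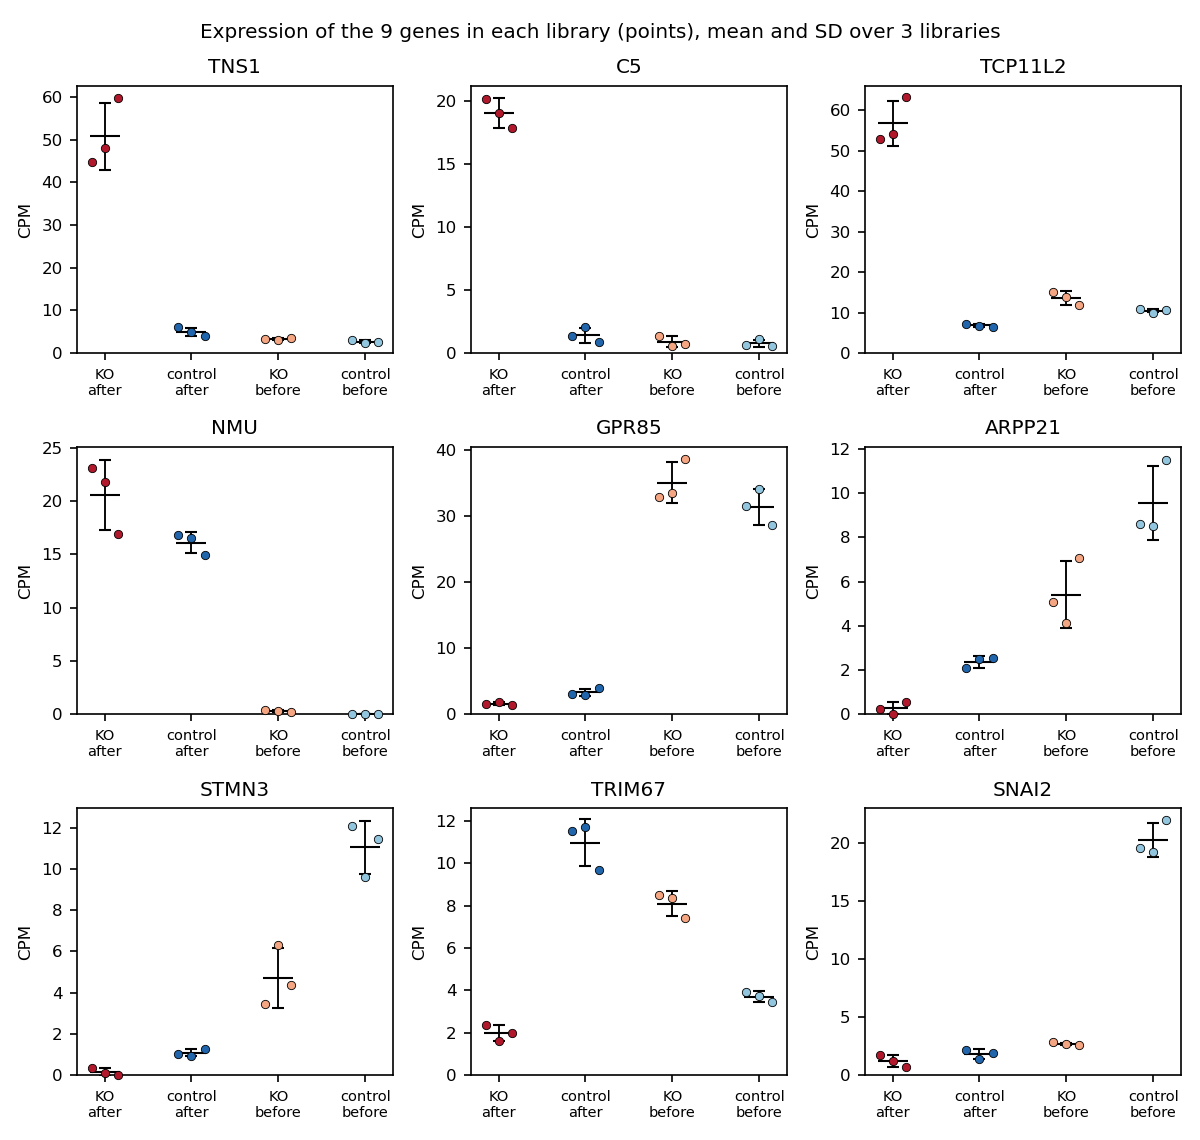
Level of each of the 9 genes in CPM (vertical axis, each panel on its own scale from 0) in KO and control libraries after and before differentiation. Points are the 3 libraries of a group and bars show mean and SD; TNS1, C5 and TCP11L2 stand out in KO cells after differentiation, SNAI2 in control cells before it, and TRIM67 is higher in KO before and lower in KO after differentiation.

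NMU was near 0 before differentiation and clearly expressed after it in both genotypes. Neuromedin U is a secreted peptide that contracts smooth muscle and curbs feeding, acting through the receptors NMUR1 and NMUR2. It measured 23.1, 21.8 and 16.9 CPM in KO and 16.8, 16.5 and 14.9 CPM in control cells after differentiation. Before it, KO libraries held 5, 3 and 2 counts and control libraries 0 counts in each. The 3 KO libraries after differentiation lay above the 3 control libraries, but by little, at a log2 KO effect of 0.36 ± 0.14. In KO cells 520 counts after and 10 before differentiation gave a ratio of 75.2 per scaled library (exact 95% interval 40.5 to 158, counting error only). In control cells 548 counts after and 0 before gave a ratio of 193, taking a floor of 3 counts over the group at 0. Against the same floor the 10 counts in KO before differentiation gave a ratio of 3.32 to control. The counting error of the 548 and of the 10 counts is left out, so neither ratio is a strict lower bound. Both receptor genes were near 0, with 5 counts for NMUR1 and 3 for NMUR2 over all 12 libraries.

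GPR85, ARPP21 and STMN3 were lower after differentiation than before it in both genotypes, and lowest in KO cells after it. GPR85 is an orphan G protein-coupled receptor known from the brain. It measured 1.52, 1.83 and 1.41 CPM in KO and 3.09, 2.83 and 3.89 CPM in control cells after differentiation, and 33.0, 33.6 and 38.6 CPM in KO and 31.5, 34.1 and 28.7 CPM in control cells before it. KO and control overlapped before differentiation and separated after it. The log2 change on differentiation was -4.44 ± 0.16 in KO and -3.28 ± 0.14 in control cells, and the log2 KO effect was -1.01 ± 0.23 after and 0.15 ± 0.10 before differentiation.

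ARPP21 encodes a phosphoprotein, regulated by cyclic AMP, with an R3H domain that binds RNA. It measured 0.234, 0 and 0.562 CPM in KO and 2.06, 2.47 and 2.53 CPM in control cells after differentiation. Before it the levels were 5.05, 4.13 and 7.06 CPM in KO and 8.63, 8.53 and 11.5 CPM in control cells. KO libraries lay below control libraries at each stage without overlap. After differentiation the KO libraries held only 6 counts together and the control libraries 80, which makes the scaled ratio 0.102 (exact 95% interval 0.0364 to 0.232). The log2 KO effect was -3.23 ± 0.54 after, or -4.26 without KO replicate 3, and -0.82 ± 0.22 before differentiation. The log2 change on differentiation was -4.42 ± 0.46 in KO, from 6 counts after against 194 before, and -2.01 ± 0.25 in control cells.

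STMN3 belongs to the stathmins, which bind tubulin and destabilise microtubules, and is known from neurons. It measured 0.352, 0.108 and 0 CPM in KO and 1.03, 0.945 and 1.26 CPM in control cells after differentiation. Before it the levels were 3.46, 6.29 and 4.34 CPM in KO and 12.1, 9.62 and 11.4 CPM in control cells. KO was again below control at each stage without overlap. The KO libraries after differentiation held 4 counts together and the control libraries 36, which makes the scaled ratio 0.151 (exact 95% interval 0.0391 to 0.422). The log2 KO effect was -2.65 ± 0.64 after and -1.24 ± 0.21 before differentiation, and the log2 change on differentiation was -4.76 ± 0.47 in KO and -3.36 ± 0.27 in control cells. These estimates lean on single counts: without KO replicate 1 after differentiation the effect after was -3.90, the change in KO cells -6.01, and the difference of the KO effects between the stages -2.66 in place of -1.41 ± 0.72. The sum of mast cell and basophil markers, of which KIT was the largest part, had the same order of groups as ARPP21 and STMN3. It was lowest in KO after, then control after, KO before and control before differentiation. Of the tested markers only KIT, HPGD, GATA2 and CPA3 had this order by their means. MS4A2, TPSAB1, TPSB2, SIGLEC6 and HPGDS were higher in control after than in KO before, with 30.4 against 21.4 CPM for TPSB2. The part of the marker sum in the levels of ARPP21 and STMN3 was not tested.

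**Figure D2:**
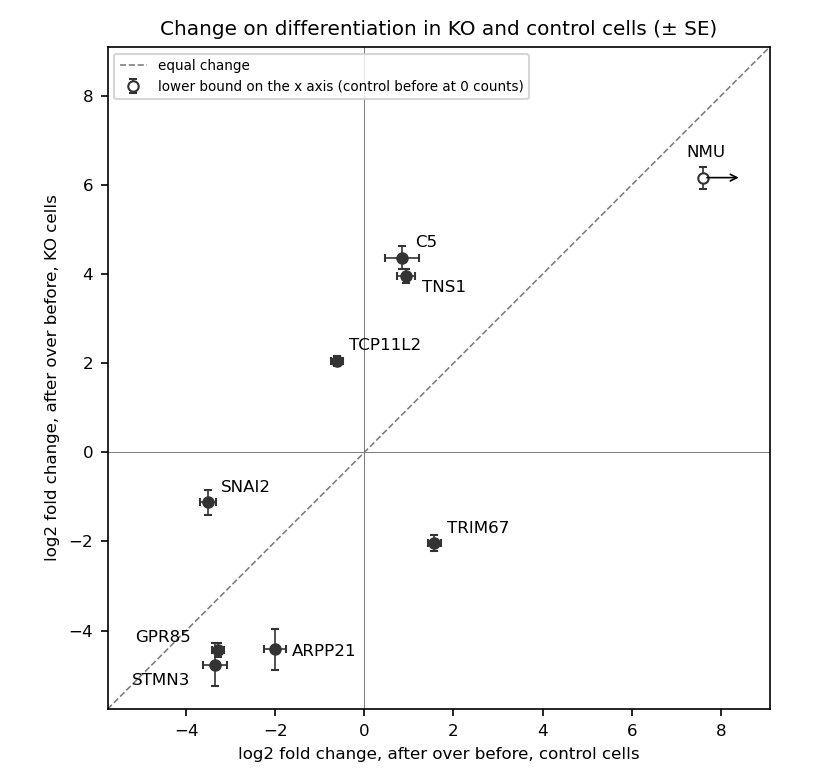
Log2 fold change of each gene on differentiation, after over before, in KO cells (vertical axis) and in control cells (horizontal axis), with SE bars; the dashed line marks equal change. NMU is drawn at its change in control cells against a floor of 3 counts (open point with arrow, labelled lower bound). TCP11L2 and TRIM67 lie in the quadrants of opposite sign, and TNS1 and C5 lie far above the line.

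TRIM67 was lower after differentiation than before it in KO cells and higher after than before it in control cells. It encodes an E3 ubiquitin ligase that is enriched in the brain and, in mice, binds the netrin receptor DCC. Its level was 2.34, 1.61 and 1.97 CPM in KO and 11.5, 11.7 and 9.68 CPM in control cells after differentiation, and 8.52, 8.35 and 7.42 CPM in KO and 3.94, 3.72 and 3.43 CPM in control cells before it. The 4 groups did not overlap, and the order of KO and control after differentiation was the reverse of that before it. The log2 change on differentiation was -2.04 ± 0.18 in KO and 1.57 ± 0.15 in control cells, and the log2 KO effect was -2.48 ± 0.18 after and 1.13 ± 0.15 before differentiation. The difference of the 2 KO effects, -3.61 ± 0.24, ranked 17 by size among the genes tested, ahead of C5 at rank 20 with 3.52 ± 0.52 and TNS1 at rank 34 with 3.04 ± 0.27. NMU ranked 8 with -4.29 ± 1.12, a fitted value that rests on its control group at 0 before differentiation. This difference is among the measures that chose the genes, so the ranks are a description only.

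SNAI2 (ENSG00000019549.7; chromosome 8, 48917690 to 48921740, minus strand, hg38) was high only in control cells before differentiation. SNAI2, or Slug, is a zinc finger repressor that silences E-cadherin in migrating cells and, in mice, protects blood progenitors from cell death. It measured 1.76, 1.18 and 0.703 CPM in KO and 2.16, 1.38 and 1.89 CPM in control cells after differentiation. Before it the levels were 2.81, 2.69 and 2.62 CPM in KO and 19.6, 19.3 and 22 CPM in control cells. KO cells were thus low at both stages, control cells were low after differentiation, and KO and control overlapped after it. The log2 KO effect was -0.52 ± 0.30 after and -2.89 ± 0.17 before differentiation, and the log2 change on differentiation was -1.12 ± 0.27 in KO and -3.50 ± 0.18 in control cells. SNAI2 and NMU were the only members with the larger KO effect before differentiation, and for NMU that rests on 10 counts against 0.

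**Figure D3:**
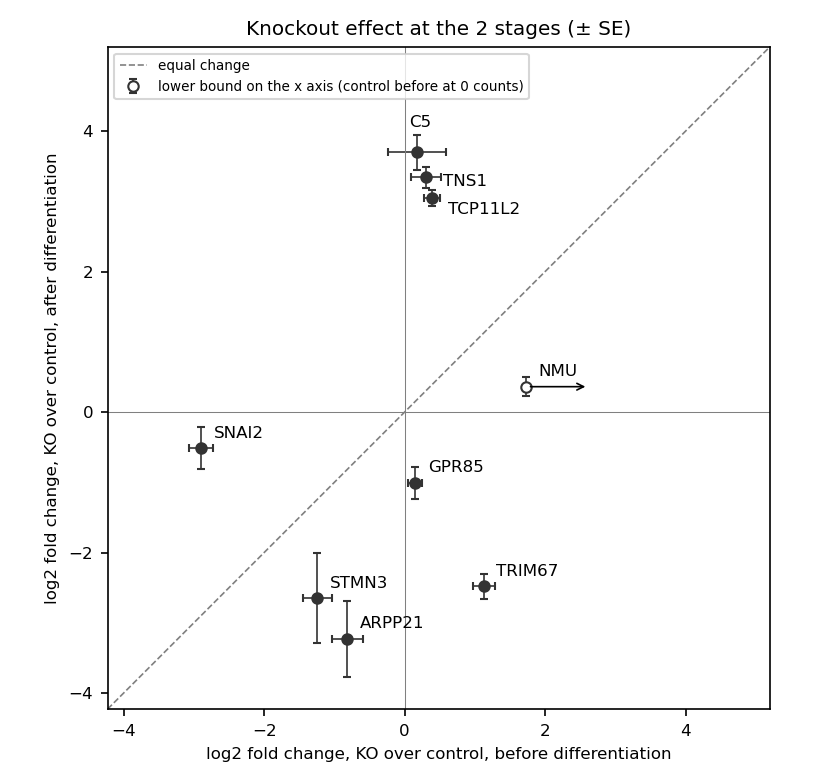
Log2 fold change of KO over control after differentiation (vertical axis) and before it (horizontal axis) for the 9 genes, with SE bars; the dashed line marks equal effects. TNS1, C5 and TCP11L2 lie high beside the vertical axis, SNAI2 lies to the left with little effect after differentiation, and TRIM67 is of opposite sign at the 2 stages. GPR85 is below 0 after differentiation and near 0 before it. NMU is drawn at its effect before differentiation against a floor of 3 counts (open point with arrow, labelled lower bound).

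Over the 9 genes the sign of the fitted KO effect was the same at both stages for 7 and opposite for TRIM67 and GPR85. KO and control overlapped before differentiation for GPR85 (0.15 ± 0.10), TNS1 and C5, and after it for SNAI2, so those signs are uncertain. The change on differentiation had the same sign in both genotypes for 7, and opposite signs for TCP11L2 and TRIM67. KO and control libraries did not overlap for 8 of 9 genes after differentiation (46.7% of all genes tested) and for 6 of 9 before it (30.7%). Libraries after and before differentiation did not overlap for 9 of 9 genes in KO (60.0%) and 8 of 9 in control cells (54.1%). These counts follow from how the genes were picked and nothing is read from them. On log2 CPM centred on each gene's own mean, TNS1 and C5 were the pair most alike, with a root mean square difference of 0.42 over the 12 libraries. GPR85 and STMN3 followed at 0.73 and ARPP21 and STMN3 at 0.81, while TCP11L2 differed from TNS1 by 0.85.

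As a contrast, the KO effect averaged over both stages is orthogonal to the changes that chose the genes, and it was the measure tested. It is still not independent of the selection. A gene picked because a single group stands out also carries an average KO effect from the same values. The calls below therefore describe the members and are no separate support. With edgeR's quasi-likelihood test, 4 members were higher and 5 lower in KO at a Benjamini-Hochberg adjusted p under 0.05, where 34.2% of all genes tested were called (17.3% higher and 16.9% lower). Over all genes 2973 were called higher and 2894 lower, or 2017 higher and 4456 lower when libraries were scaled by their totals alone. The genes higher in KO were TCP11L2, at an average log2 change of 1.72 ± 0.08 (adjusted p = 5.18e-11), TNS1 at 1.82 ± 0.13 (adjusted p = 1.15e-08), C5 at 1.94 ± 0.25 (adjusted p = 1.23e-05) and NMU at 2.51 ± 0.55 (adjusted p = 0.00214). The size for NMU depends on the prior count, since its control group before differentiation was at 0. The genes lower in KO were SNAI2 at -1.70 ± 0.17 (adjusted p = 5.13e-07), ARPP21 at -2.02 ± 0.29 (adjusted p = 2.91e-05), STMN3 at -1.94 ± 0.33 (adjusted p = 0.000162), TRIM67 at -0.67 ± 0.12 (adjusted p = 0.000355) and GPR85 at -0.43 ± 0.12 (adjusted p = 0.0130). The average of TRIM67 is between effects of opposite sign, and that of GPR85 is between a lower level in KO after differentiation and a small effect of uncertain sign before it. The averages of TNS1 and C5 come almost wholly from the libraries after differentiation. An exact permutation test within a single stage, of 3 against 3 libraries, cannot go below p = 0.1. None was run, either within a stage or for the average over both stages.

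**Figure D4:**
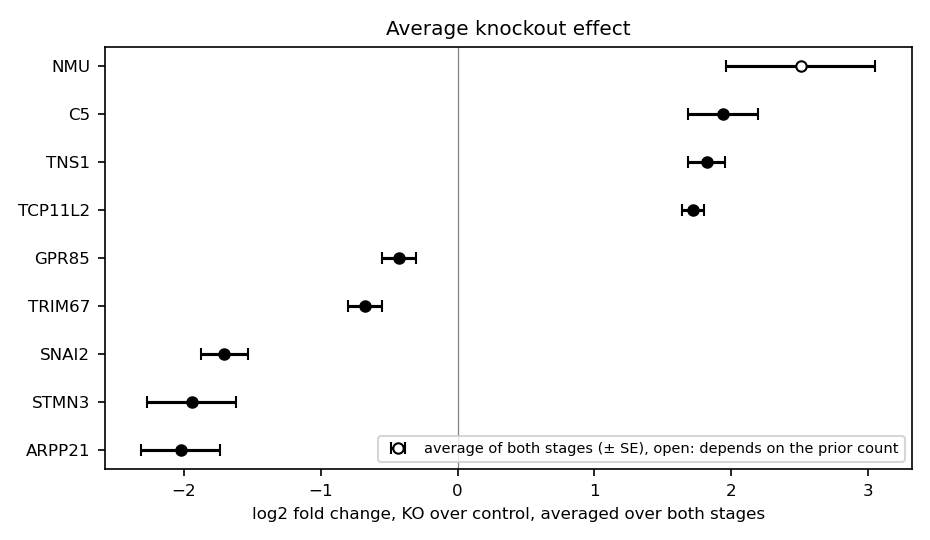
Average log2 fold change of KO over control over both stages (horizontal axis) with SE bars for the 9 genes (vertical axis, sorted by value). The 4 genes from TCP11L2 to NMU are above 0 and the 5 from GPR85 to ARPP21 below it; the open point marks NMU, whose size depends on the prior count.

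Levels of different genes are compared per length of exon, as RPKM (CPM per kilobase of exon). NMU ranked highest after differentiation, at 21.1 RPKM in KO and 16.5 RPKM in control cells. In KO cells after differentiation it was followed by TCP11L2 (8.65 RPKM), then TNS1 (3.26 RPKM) and C5 (2.91 RPKM), whose libraries overlapped, and all others were under 1 RPKM. In control cells after differentiation TRIM67 (1.18 RPKM) and TCP11L2 (1.04 RPKM) overlapped below NMU, and C5 was lowest at 0.214 RPKM, overlapping ARPP21 at 0.233 RPKM. In KO cells before differentiation GPR85 led at 4.74 RPKM, with TCP11L2 (2.07 RPKM) and STMN3 (1.92 RPKM) overlapping below it, and in control cells before differentiation SNAI2 led at 8.90 RPKM, above STMN3 (4.51 RPKM) and GPR85 (4.25 RPKM), which overlapped. NMU, first in both groups after differentiation, was among the lowest members in both groups before it.

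Genes with the most similar pattern were sought among 11643 tested protein-coding genes by the root mean square difference of centred log2 CPM over the 12 libraries, with a smaller value meaning more alike. The nearest to TNS1 and to C5 was CMKLR1, the receptor of chemerin (0.36 and 0.51), followed for both by MYT1, a neural zinc finger factor (0.38 and 0.56). Both were low, at 2.99 and 3.26 CPM in KO cells after differentiation. TCP11L2 was closest to RAP1GAP, which turns off the small GTPase RAP1 (0.23), with 105 CPM in KO and 17.1 CPM in control cells after differentiation and 31.4 CPM in KO and 20.4 CPM in control cells before it. The nearest to NMU was PHGDH, an enzyme of serine synthesis, at 0.93, against a spread of NMU itself of 3.04. GPR85 was closest to CRYZ, a quinone reductase (0.36), ARPP21 to ELOVL2, a fatty acid elongase (0.44), STMN3 to LPCAT2, an enzyme that makes platelet-activating factor (0.39), and SNAI2 to ASB9 (0.39). TRIM67 had matches no nearer than CARMIL3, MAML3 and ANXA1, each at 0.58, against a spread of TRIM67 itself of 0.94. The next matches were BEST3 for TNS1, GRAP2 for C5, ABTB1 and PTGS1 for TCP11L2, SLC30A1 and ASS1 for NMU, NRCAM and TBC1D30 for GPR85, BEX3 and DOCK2 for ARPP21, RAB29 and MALT1 for STMN3, and CFAP54 and PROKR1 for SNAI2. Of the 27 matches 14 were also named when the 4 group means were used in place of the 12 libraries.

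Other genes of the members' families and pathways were taken from lists chosen with earlier results of these data known. Their shares called, here and below, are therefore a description only. The lists held 122 genes, of which 65 were tested. For the average KO effect 20 rose, 17 fell and 28 were not called, a share called of 56.9% where 34.2% of all genes were, with a median log2 change of 0.08, against -0.01 over all genes. For the difference of the KO effects between the stages 4 were higher and 12 lower after differentiation, where 6.28% of all genes were called higher and 6.68% lower. Without control replicate 1 before differentiation 7 were lower in place of 12. Scaling by library totals alone left 644 genes higher and 2146 lower in that contrast, in place of 1079 and 1148.

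Of 16 tested genes of integrin adhesion, the pathway of TNS1, 3 rose, 3 fell and 10 were not called for the average KO effect, a share called of 37.5% against 34.2% of all genes. TNS3, a second tensin, rose by 0.47 ± 0.06 on the log2 scale (edgeR adjusted p = 4.86e-06), and TNS4 was not tested, with 13 counts in all. Vinculin (VCL), which couples talin to actin, had 55.3 CPM in KO and 34.2 CPM in control cells after differentiation and 90.8 CPM in KO and 116 CPM in control cells before it, a stage difference of 1.04 ± 0.13 (adjusted p = 8.85e-05). The integrin chain ITGB1 had 1064 CPM in KO and 755 CPM in control cells after differentiation, against 407 CPM in KO and 399 CPM in control cells before it, a stage difference of 0.47 (adjusted p = 0.0116). ITGA2B, the platelet integrin chain, had 10.2 CPM in KO and 11.2 CPM in control cells after and 43.1 CPM in KO and 27.4 CPM in control cells before differentiation. Its stage difference of -0.77 (adjusted p = 0.0286) did not pass the test in 7 of 12 fits that left out 1 library, with adjusted p between 0.0535 and 0.0629 in those.

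Of 15 tested complement genes 8 rose, 2 fell and 5 were not called for the average KO effect, a share called of 66.7% against 34.2% of all genes (17.3% higher and 16.9% lower), with a median log2 change of 0.52 against -0.01 over all genes. CFD, the protease factor D of the alternative pathway, measured 8.22 CPM in KO and 3.52 CPM in control cells after differentiation and 34.8 CPM in KO and 3.68 CPM in control cells before it. Its average log2 KO effect was 2.21 ± 0.14 (edgeR adjusted p = 2.57e-09), and its stage difference of -2.04 ± 0.29 ran opposite to that of C5. C3, the central complement protein, rose by 1.71 ± 0.35 at group means under 3 CPM. C1S, a protease of the classical pathway, also rose, with 2.09 CPM in KO and 0.877 CPM in control cells after differentiation and 0.638 CPM in KO and 0.261 CPM in control cells before it. The receptor gene C5AR2 had 8.85 CPM in KO and 18.4 CPM in control cells after differentiation and 20.8 CPM in KO and 22.7 CPM in control cells before it, a stage difference of -0.94 (adjusted p = 0.000904), whereas C5AR1 held 8 counts in all. C1QBP, a mitochondrial protein that also binds C1q, had a stage difference of -0.40 (adjusted p = 0.00427). Of the inhibitors on the cell surface, CD59, which blocks the membrane attack complex, fell by 0.25, while CR1 rose by 0.87 ± 0.18, CD46 by 0.25 ± 0.05 and CD55 by 0.17 ± 0.05 (edgeR adjusted p = 0.000310 for CD46 and 0.0191 for CD55).

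The close relatives of TCP11L2, NMU and GPR85 were mostly too low to test. TCP11L1 had an average log2 KO effect of -0.05 ± 0.09 (edgeR adjusted p = 0.748). The peptide genes NMB and GHRL had 0.15 ± 0.16 (adjusted p = 0.531) and -0.03 ± 0.28 (adjusted p = 0.960), and neither passed the test. GPR27 and GPR173, the other receptors of the family of GPR85, held 1 and 5 counts over all libraries. Among 6 tested relatives of ARPP21, R3HDM1, which also has an R3H domain, fell by 0.31 ± 0.07 (adjusted p = 0.00127) and R3HDM4 rose by 0.48 ± 0.11 (adjusted p = 0.00212).

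Of 12 tested stathmin and microtubule genes 2 rose, 5 fell and 5 were not called for the average KO effect, a share called of 58.3% against 34.2% of all genes, with a median log2 change of -0.11. STMN1, the stathmin of dividing cells, had 323 CPM in KO and 387 CPM in control cells after differentiation and 463 CPM in KO and 500 CPM in control cells before it, and fell by 0.19 ± 0.05 on the log2 scale (edgeR adjusted p = 0.00392). The microtubule proteins MAP1B and MAP4 had stage differences of -1.61 ± 0.42 (adjusted p = 0.0169) and -0.45 ± 0.13 (adjusted p = 0.0296). The call of MAP1B was lost without control replicate 1 before differentiation (adjusted p = 0.0501), and that of MAP4 in 7 of 12 fits that left out 1 library (adjusted p between 0.0547 and 0.0901 in those).

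Among 4 tested genes of the TRIM67 list, NEO1, the netrin receptor neogenin, measured 35.1 CPM in KO and 13.2 CPM in control cells after differentiation and 55.5 CPM in KO and 14.1 CPM in control cells before it. It rose at both stages, by an average of 1.69 ± 0.06 on the log2 scale (edgeR adjusted p = 2.79e-12), with a stage difference of -0.57 (adjusted p = 0.00612). The netrin gene NTN1 had 0.662 CPM in KO and 3.03 CPM in control cells after and 3.56 CPM in KO and 6.46 CPM in control cells before differentiation, and its average fell by 1.54 ± 0.20. Its stage difference of -1.33 ± 0.42 (adjusted p = 0.0469) did not pass the test in 10 of 12 fits that left out 1 library, with adjusted p up to 0.186 in those. DCC and TRIM9, the nearest relative of TRIM67, held 4 and 37 counts in all.

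Of 9 tested relatives, partners and targets of SNAI2, 4 rose, 3 fell and 2 were not called for the average KO effect, a share called of 77.8% against 34.2% of all genes, with a median log2 change of -0.03. SNAI1, the other well known member of the family, had 16.5 CPM in KO and 17.7 CPM in control cells after differentiation and 3.64 CPM in KO and 5.54 CPM in control cells before it, and fell by an average of 0.35 ± 0.11 (edgeR adjusted p = 0.0226). E-cadherin (CDH1), which SNAI2 represses in epithelial cells, measured 23.1 CPM in KO and 37.6 CPM in control cells after differentiation and 61.2 CPM in KO and 66.0 CPM in control cells before it, a stage difference of -0.60 (adjusted p = 0.00669). BBC3, a cell death gene that SNAI2 represses in mouse blood progenitors, measured 73.4 CPM in KO and 30.5 CPM in control cells after differentiation and 28.7 CPM in KO and 23.2 CPM in control cells before it, a stage difference of 0.95 ± 0.19 (adjusted p = 0.00306). KIT, the receptor of stem cell factor, had 370 CPM in KO and 586 CPM in control cells after and 662 CPM in KO and 741 CPM in control cells before differentiation, a stage difference of -0.50 (adjusted p = 0.000767).

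**Figure D5:**
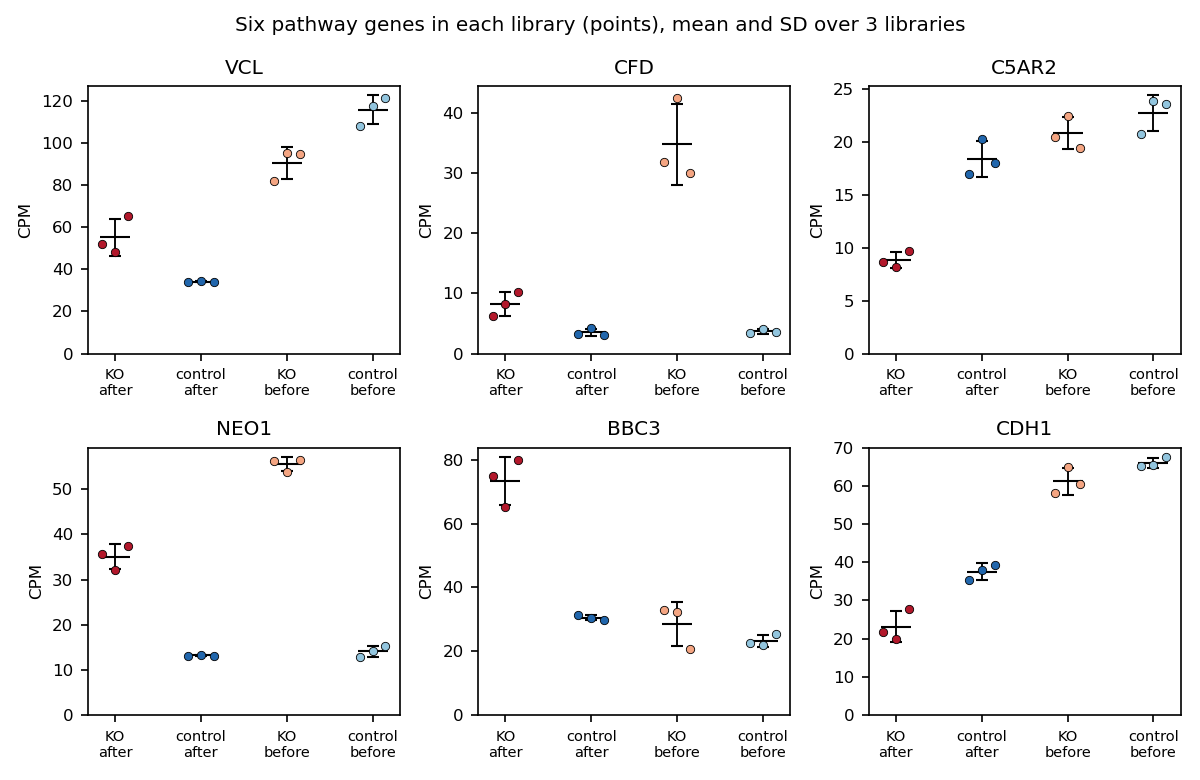
Level in CPM (vertical axis, each panel from 0) of 6 genes from the pathways of TNS1, C5, TRIM67 and SNAI2 in KO and control libraries after and before differentiation. Points are libraries, bars mean and SD; CFD peaks in KO cells before differentiation and BBC3 in KO cells after it.

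The nearest tested gene on each side of each member was examined, 18 in all, and none was called higher for the average KO effect. Genes that were not tested were passed over, so a neighbour need not be adjacent. The gaps ran from 2206 bases, for C1orf131 and TRIM67, to 852981 bases, for UBE2V2 and SNAI2. For the average KO effect 7 of 18 neighbours were called, 38.9% where 34.2% of all genes were, and all 7 were lower in KO: ARPC2 beside TNS1, CNTRL beside C5, CLOCK and EXOC1 beside NMU, BMT2 and SMIM30 beside GPR85, and FAM89A beside TRIM67. Of these 3 shared the direction of their member and 4 were opposite to it. Only FAM89A, which lies 121865 bases from TRIM67, was called for the stage difference, at -0.38 (edgeR adjusted p = 0.0237), and its call was lost in 7 of 12 fits that left out 1 library. FAM89A measured 79.3 CPM in KO and 139 CPM in control cells after differentiation and 95.1 CPM in KO and 128 CPM in control cells before it. The neighbours without a call for the average KO effect were RPL7L1P9, PHF19, AC010182.1, POLR3B, FECHP1, RFC3P1, MHENCR, RTEL1, C1orf131, UBE2V2 and PSAT1P1.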

How the data were processed

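Total RNA of 12 HUDEP-2 libraries, 3 per group, was sequenced after a stranded kit that removes ribosomal and globin RNA, per the labels' protocols. The authors deposited raw counts per gene without normalization, made with featureCounts 1.4.6-p4 over exons of GENCODE release 22 on hg38 with no strand option, per the file headers. The submitters' processing notes give featureCounts 1.2.6 and Subread 1.6.2. Symbols were joined by Ensembl identifier from GENCODE release 29, which named 56753 of 60483 genes.

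From these counts, edgeR 4.0.16 in R 4.3.3 kept 17175 genes (filterByExpr with the 4 groups), scaled libraries with TMM factors and fitted a quasi-likelihood model with 4 group means over all 12 libraries. Contrasts were the average KO effect, the KO effect after and before differentiation, the change on differentiation in KO and in control cells, and the difference of the KO effects between the stages. Calls used the two-sided F-test, with p-values adjusted over the 17175 genes by Benjamini-Hochberg and a threshold of 0.05. SE is the log2 fold change divided by the square root of F. CPM and RPKM use TMM-scaled library sizes, and log2 CPM for pattern likeness used a prior count of 2. Ratios with few counts have exact 95% binomial intervals, which cover counting error only. A group at 0 was set to a floor of 3 counts over the group, and the counting error of the other group was left out.

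The members, the 9 lists of relatives and the marker lists were chosen with earlier results of these data known. Every member is named. From each list of relatives the rule named up to 3 genes with the smallest adjusted p for the stage difference among those called, or else up to 2 by the average effect, and for each member 3 genes most alike in pattern and the nearest tested gene on each side. Further relatives, TNS3, TNS4, C3, C1S, C5AR1, CD46, CD55, CD59, CR1, NMUR1, NMUR2, GPR27, GPR173, STMN1, DCC, TRIM9 and SNAI1, were named for their role after their values were seen. The steps were tested on simulated counts before use. Alternatives were RLE factors, library totals alone, no filter, a filter of 10 counts in 3 libraries, DESeq2 1.42.0, robust fitting, the replicate number as a block, chromosome 18 left out, and each library left out in turn.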

Additional observations from a re-analysis of the deposited data

Results flagged for a closer look

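The genes below are set apart because the KO effect after differentiation differed from that before it, by the edgeR interaction test on the log2 scale, or, for 2 members, because the groups did not overlap and the change ran in opposite directions in 2 contrasts. Among relatives of TNS1, VCL (1.04) and ITGB1 (0.47) had the higher KO effect after differentiation and ITGA2B (-0.77) the lower. Among complement genes the values were -2.04 for CFD, -0.94 for C5AR2 and -0.40 for C1QBP. The microtubule genes MAP1B (-1.61) and MAP4 (-0.45) and the netrin genes NEO1 (-0.57) and NTN1 (-1.33) had the lower KO effect after differentiation. In the SNAI2 list BBC3 had 0.95, KIT -0.50 and CDH1 -0.60. FAM89A, beside TRIM67, had -0.38.

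The calls of ITGA2B, MAP4, NTN1 and FAM89A were lost in 7, 7, 10 and 7 of the 12 fits that left out 1 library. The call of MAP1B was lost only without control replicate 1 before differentiation. That of ITGA2B held only when the library left out was any KO replicate before differentiation, control replicate 3 before or control replicate 2 after it. That of NTN1 held only without KO replicate 1 before or control replicate 1 after differentiation. MAP4 kept its call in 5 fits of 12, and FAM89A in 5 fits of 12, with adjusted p between 0.0530 and 0.0786 where it was lost.

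TCP11L2 had a log2 change on differentiation of 2.05 in KO and -0.62 in control cells. TRIM67 had a log2 KO effect of -2.48 after and 1.13 before differentiation, and a log2 change on differentiation of -2.04 in KO and 1.57 in control cells. These differences were not tested, since the genes were picked for them.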

How the results depend on the processing

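The average KO effect of all 9 members kept its direction and its call under each of the 20 alternatives, with the largest adjusted p for GPR85 (0.0420). Of 900 recomputed values of the other contrasts of the members 8 moved by more than the replicate spread. These were the 4 given above for ARPP21 and STMN3 and 4 fitted values of NMU, which rest on a group at 0. No value larger than 2 SE turned round, and smaller values were not checked for a change of sign. With library totals alone as scaling, the median of all genes moved to a log2 change of -0.10 for the average KO effect, -0.17 for the KO effect after differentiation, -0.16 for the change in KO cells and -0.15 for the stage difference; 4456 genes were then lower for the average KO effect, and 3 neighbours lower for the stage difference. Leaving out 1 library gave 7 to 12 relatives lower and 0 to 1 neighbours lower and 0 to 1 higher for the stage difference, and 0 to 1 neighbours higher for the average effect. Without a filter 1 neighbour was higher for the stage difference. GHRL, which never passed the test, ranged from -0.28 to 0.16. NTN1 also missed the threshold in DESeq2 (adjusted p = 0.0547). With the last 100 bases before the start in place of the window of 300, 3 member windows, of TNS1 and ARPP21, held CAGGTG, fewer than with 300 bases. The causes of these shifts were not tested. The main fit did not take the replicate numbers to pair the libraries. Of 18 correlations between same-numbered libraries, which ran from -0.018 to 0.25, 10 were over 0.1, which does not decide against a pairing. As a hint from the data, 16 of these 18 were above 0, against 10 of 36 between libraries of different number, and 23 of 36 best matches in another group had the library's own number. The values correlated are deviations from group means, which sum to 0 within a group. The correlations of same and of different number are therefore not independent of each other. With the replicate number as a block, 4 members remained higher and 5 lower, 21 relatives were higher and 17 lower, 1 neighbour was higher for the average effect and 2 for the stage difference, and 3217 genes were higher and 3091 lower. Groups of 3 libraries and counts under 10 limit the precision for NMU before, and for ARPP21 and STMN3 after, differentiation.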
